A study of Rattus norvegicus with 12 samples.

Results

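Oxidative phosphorylation subunit genes encode the nuclear parts of the 5 protein complexes that carry electrons along the mitochondrial inner membrane and make ATP. They were chosen here by gene symbol, with pseudogene symbols left out: Nduf genes for complex I, Sdh for complex II, Uqcr for complex III, Cox for complex IV and Atp5 for complex V. This gave 75 of the 17315 genes in the count files, of which complex I had 33, complex II 4, complex III 8, complex IV 13 and complex V 17. Counts were high enough to test 71 of them. The 4 others were Ndufa1 with 3 counts over all 12 libraries, Cox8b with 2, Cox8c with 3 and Atp5f1 with 58. The symbols are those of the files: RefSeq held 58 under the same symbol and 17 under a newer one. Atp5s and Atp5sl are Dmac2l and Dmac2 there, genes linked to assembly rather than to the finished enzyme, Ndufa4 is now placed in complex IV, and Cox7a2l is a supercomplex factor. Cyc1, Cox4i1, Ndufab1 and Cycs belong to the same machinery but fall outside the symbol rule, and the subunits encoded by mitochondrial DNA were not analysed here.

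Complex I takes electrons from NADH and complex II takes them from succinate, a citric acid cycle intermediate. Complex III passes them to cytochrome c, complex IV hands them to oxygen, and ATP synthase (complex V) uses the proton gradient built by complexes I, III and IV. Müller cells are the main glia of the retina and are known for a metabolism that leans on glycolysis.

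The RNA-seq libraries came from SIRMu-1 cells (n = 5), a spontaneously immortalised rat Müller line, from rMC-1 cells (n = 3), a rat Müller line immortalised with SV40 large T antigen, and from primary rat Müller cell cultures (n = 4), labelled Primary MC. All were Sprague-Dawley, grown in MEM with 25 mM glucose. SIRMu-1 replicates 1 to 5 were at passages 6, 11, 11, 11 and 20, came from pups of postnatal day 2 to 4, and grew in 20% fetal bovine serum. Their replicates 3 and 5 also had gentamicin at 87 mg per litre and amphotericin B at 2.2 mg per litre. The rMC-1 replicates were at passages 23, 26 and 26, came from an adult animal, and grew in 10% serum without these drugs. Primary MC replicates were at passages 4, 4, 3 and 3, came from pups of the same age as SIRMu-1, and grew in 20% serum with both drugs. Each line is 1 line, so line, age, passage and serum cannot be told apart for rMC-1, nor can the drugs in its comparison with primary cultures. In SIRMu-1 against primary cultures, line and passage cannot be told apart. The drugs differ there too, since only SIRMu-1 replicates 3 and 5 had them. The labels call the replicates biological without saying which cultures share an animal, and p-values measure the spread between these cultures.

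Reads counted in genes numbered 26349346 to 36730443 in SIRMu-1, 27351014 to 38125630 in rMC-1 and 22582345 to 29812705 in primary cultures. No library repeated another. Of 10 Müller markers tested, 0 were higher and 7 lower in SIRMu-1 than in the primary cultures, and 1 was higher and 7 lower in rMC-1 than in the primary cultures. Aqp4 and Kcnj10 were near 0 in all 12 libraries, and Car2 was at 0 in both lines. The summed CPM (counts scaled to library size by TMM) of 4 cycling genes was 116 to 792 in SIRMu-1, 2045 to 2247 in rMC-1 and 22.4 to 44.7 in primary cultures, and their part in the results below was not tested. Of 9 fibroblast and matrix genes, 0 were higher and 4 lower in SIRMu-1 than in the primary cultures, and 0 were higher and 9 lower in rMC-1 than in the primary cultures. Beside these lists, 21.7% of all genes tested were higher and 24.4% lower in SIRMu-1 than in the primary cultures. For rMC-1 the shares were 31.9% and 38.9%. In each group 1 library stood low for the members: SIRMu-1 replicate 5, rMC-1 replicate 2 and Primary MC replicate 2. Summed CPM over all members was 6713 in that SIRMu-1 library (others 7155 to 7323), 7284 in that rMC-1 library (others 8378 to 8472) and 4755 in that primary one (others 6018 to 6178). Each also had its group's highest share of reads without a feature, at 28.7% in SIRMu-1, 30.3% in rMC-1 and 25.8% in primary cultures, and the part of this in the results was not tested.

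The members' messages were more abundant in both lines than in the primary cultures, by a modest amount and with exceptions that differed between the lines. Summed over all members, the level averaged 7116 ± 234 CPM in SIRMu-1 (SD, n = 5), 8045 ± 660 CPM in rMC-1 (n = 3) and 5755 ± 670 CPM in primary cultures (n = 4). The 3 groups did not overlap apart from the low rMC-1 library, which lay within the SIRMu-1 range. In these bulk cultures, fewer cells of a type and less RNA per cell cannot be told apart.

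**Figure D1:**
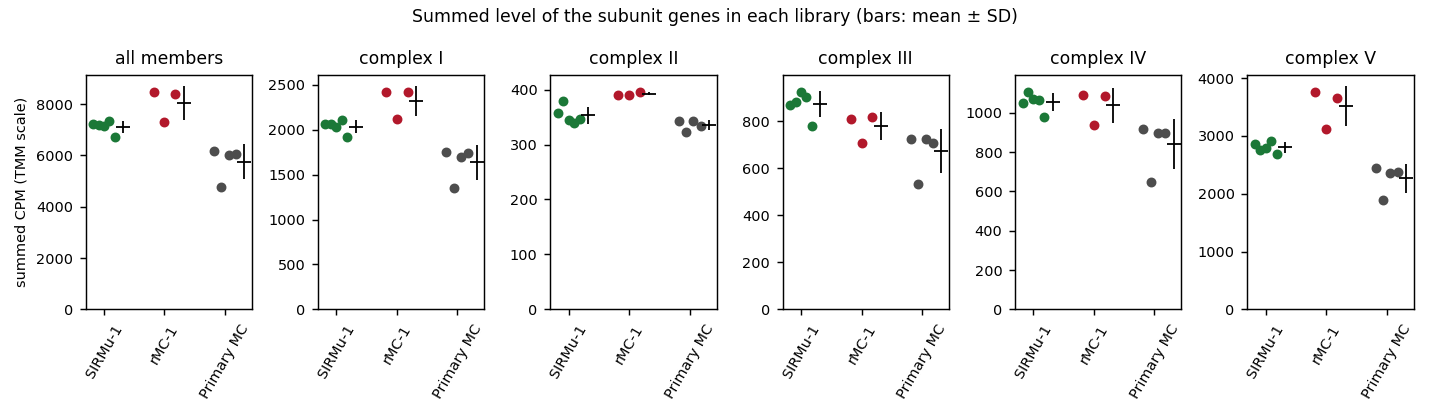
Summed CPM of the members of each complex in every library, with SIRMu-1, rMC-1 and primary cultures from left to right, points for libraries and bars for the mean ± SD. Complex V was at 2802 ± 89.6 CPM in SIRMu-1, 3515 ± 342 CPM in rMC-1 and 2269 ± 251 CPM in primary cultures, and complex II at 353 ± 15.9 CPM in SIRMu-1, 392 ± 2.98 CPM in rMC-1 and 335 ± 9.42 CPM in primary cultures.

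Between SIRMu-1 and primary cultures, 33 of the 71 tested members were higher in SIRMu-1, 2 were lower (Atp5sl and Cox6b2) and 36 did not pass an edgeR quasi-likelihood test at an adjusted p under 0.05. Cox6b2 passed the filter on low counts through the primary cultures, where it is high, so its lower call here and in rMC-1 was fixed in part by the filter. Of all 11321 genes tested, 46.1% passed, 21.7% higher and 24.4% lower. The members' median log2 fold change was 0.29, against -0.02 for all genes, and 59 of 71 were above 0. Few of these changes were large: 8 of the 33 reached 1.5-fold and 1, Atp5g2, reached 2-fold. CPM of the groups did not overlap for 30 members that were higher in SIRMu-1 and for 0 that were lower, against 17.2% and 18.1% of all genes. Without Primary MC replicate 2, 25 members were higher and 1 lower, and the median was 0.22.

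Between rMC-1 and primary cultures, 38 members were higher in rMC-1, 11 were lower and 22 did not pass, where 70.8% of all genes passed, 31.9% higher and 38.9% lower. The median log2 fold change was 0.37 over the members, against -0.15 over all genes. Among them were 24 rises and 7 falls of at least 1.5-fold and 8 rises and 5 falls of at least 2-fold. CPM did not overlap for 40 members that were higher and 11 that were lower in rMC-1, against 32.7% and 38.2% of all genes. These splits rest on the scaling, since rMC-1 libraries have TMM factors of 1.255 to 1.284 and the others 0.839 to 1.006. With library totals in place of TMM, 56 members were higher and 6 lower with a median of 0.84, while the median of all genes moved to 0.32 and the share of all calls that were higher from 45.1% to 61.9%. Relative to the median of all genes, 55 of the 71 members lay above it under either scaling. Scaling moves all genes together, so this count could hardly change and does not test the scaling.

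Between SIRMu-1 and rMC-1, 16 members were higher in SIRMu-1, 17 were lower and 38 did not pass, where 63.2% of all genes passed, 32.7% higher and 30.5% lower. The median was -0.07 over the members and 0.03 over all genes. With library totals, 5 were higher and 46 lower, with a median of -0.53 beside -0.40 for all genes. Without rMC-1 replicate 2, 10 were higher and 28 lower. CPM did not overlap for 16 members that were higher and 19 that were lower in SIRMu-1, against 32.0% and 31.0% of all genes. Counts that involve rMC-1 are given under TMM scaling from here on. The comparisons of the lines with primary cultures share the 4 primary libraries. Within SIRMu-1, cultures with and without the drugs gave 0 called genes of 11321 (0%) by edgeR and 4 by DESeq2, with 433 genes and 1 member at an unadjusted p under 0.05, and the members' median was -0.09.

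**Figure D2:**
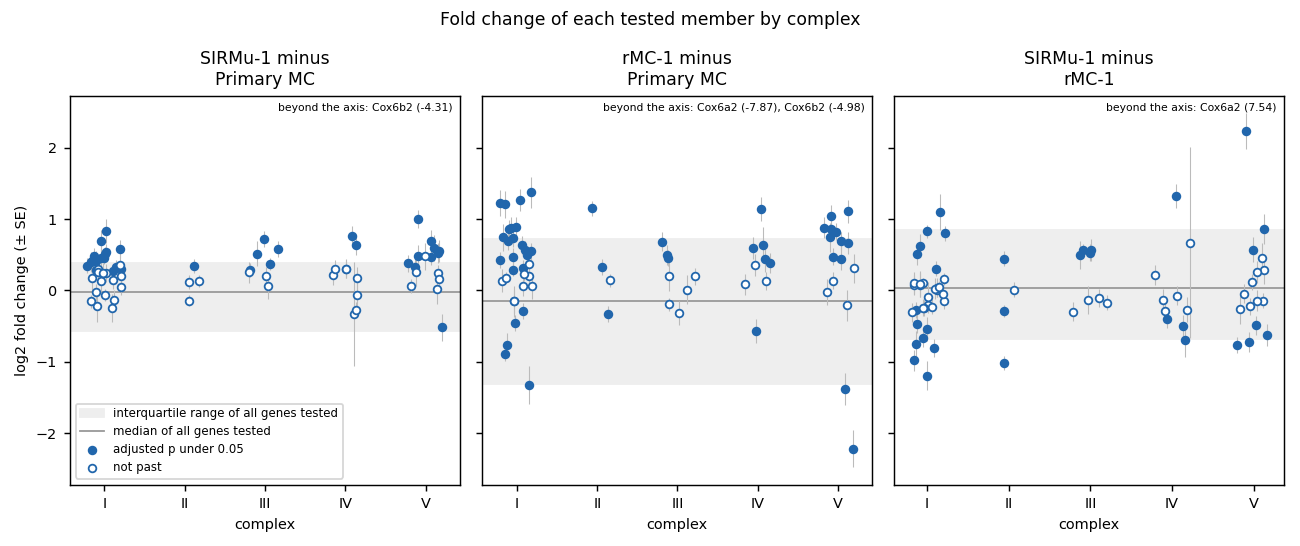
Log2 fold change ± SE of each tested member by complex in the 3 comparisons, with filled points for an edgeR adjusted p under 0.05, a line at the median of all genes and a grey band over their interquartile range. Most members of every complex sit above the line in the comparison of SIRMu-1 with primary cultures, and the spread is wider where rMC-1 takes part.

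Read across the 3 comparisons, the members fell into a few patterns. The most frequent, with 16 members, was a rise in both lines over primary cultures with no call between the lines. A further 7 rose in both lines and were lower in SIRMu-1 than in rMC-1 (Ndufa5, Ndufb7, Ndufb9, Ndufv1, Cox7b, Atp5g3 and Atp5j2). Another 8 rose in rMC-1 against both others (Ndufa12, Ndufa4, Ndufs4, Ndufs7, Sdhd, Cox7a2, Atp5b and Atp5d), and 7 fell in rMC-1 against both others (Ndufa10, Ndufb3, Ndufb4, Ndufv3, Sdhc, Cox6a2 and Atp5s). The 4 members that rose in SIRMu-1 against both others were Uqcrb, Uqcrc2, Uqcrq and Atp5e, and 2 were higher in SIRMu-1 and lower in rMC-1 than in the primary cultures, Ndufv2 and Cox7a2l. With library totals, Ndufv2, Ndufv3 and Sdhc were no longer lower in rMC-1 than in the primary cultures, at 0.19 (edgeR adjusted p = 0.218), 0.01 (adjusted p = 0.917) and 0.15 (adjusted p = 0.223). Ndufb3 and Cox7a2l also lost their lower call in rMC-1 against primary cultures with library totals, with values given below. No call was made in any of the 3 comparisons for 10 members.

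**Figure D3:**
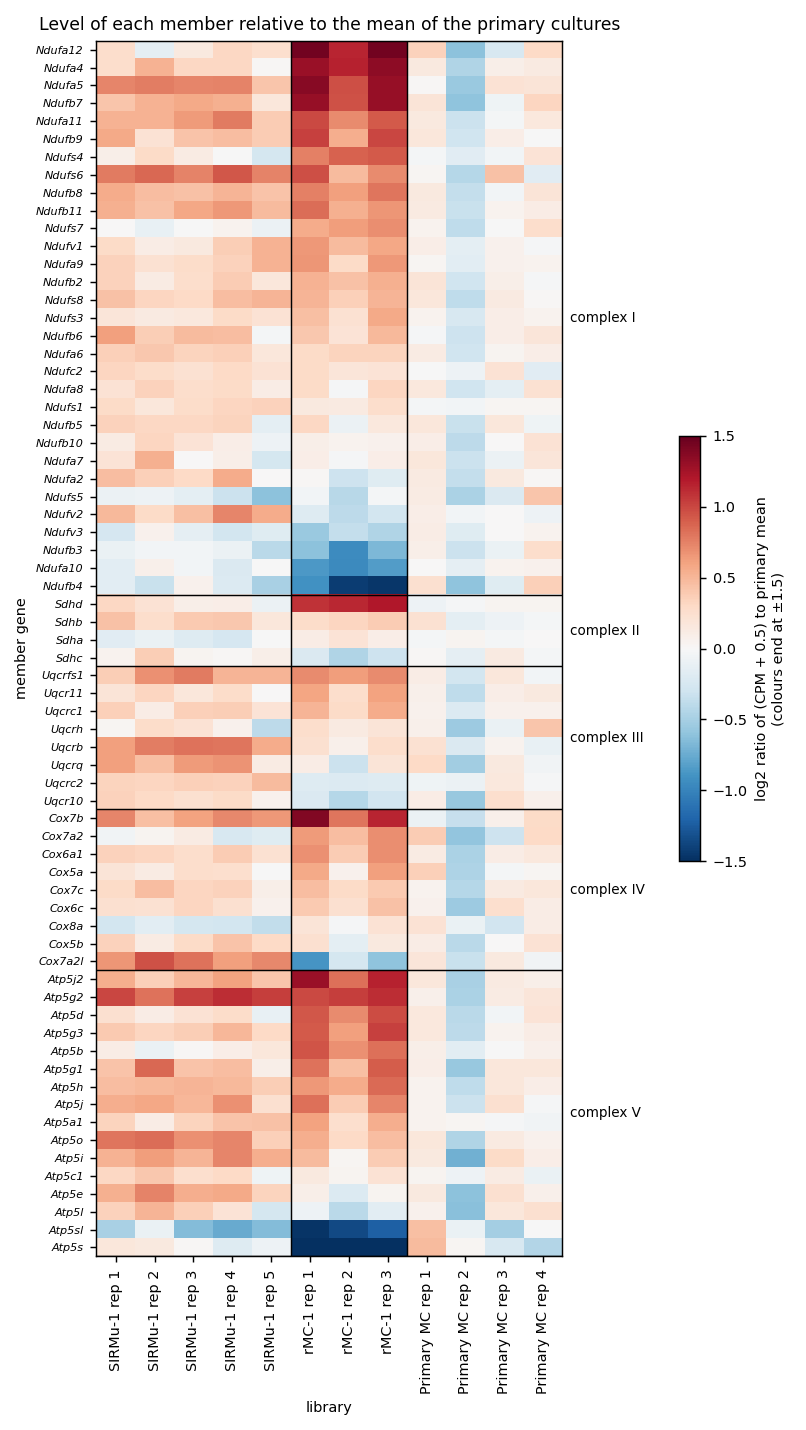
Log2 ratio of CPM + 0.5 in each library to the mean of the primary cultures, for 68 of the 69 members with a mean log2 CPM of at least 2, ordered by complex, with SIRMu-1, rMC-1 and primary libraries from left to right and colours that end at ±1.5. Atp5sl, Ndufb4 and Ndufa10 are low in the 3 rMC-1 libraries where most of complex I and V are high, and Primary MC replicate 2 is the lowest primary library for most members.

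Many of these genes are known targets of NRF1, a transcription factor that binds a GC-rich palindrome in promoters of respiratory genes. RefSeq (GRCr8) gave the window from 250 bases before to 50 after the start for 65 of the 75 members, and both strands were searched for the core CGCATGCG. It was present in 7 (10.8%), against 3.57% of 9113 promoters of tested genes and 1.66% of 33469 promoters in all. Of the 7, 5 belong to the 15 promoters of ATP synthase genes. They are printed as the member promoters that hold the core, in 80 bases around the match, with the match in capitals. Coordinates are those of GRCr8, not of the build the counts were made on.
Atp5g2, chr7:135678249-135678328, minus strand: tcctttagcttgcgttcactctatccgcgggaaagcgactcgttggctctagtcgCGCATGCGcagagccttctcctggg
Atp5o, chr11:44657514-44657593, minus strand: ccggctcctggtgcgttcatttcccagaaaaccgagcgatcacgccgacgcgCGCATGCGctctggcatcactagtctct
Atp5i, chr14:1464750-1464829, plus strand: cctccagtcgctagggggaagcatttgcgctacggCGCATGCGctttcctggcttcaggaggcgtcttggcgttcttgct
Atp5j, chr11:37375232-37375311, minus strand: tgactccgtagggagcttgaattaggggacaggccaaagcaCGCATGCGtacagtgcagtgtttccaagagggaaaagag
Atp5l, chr8:54130578-54130657, minus strand: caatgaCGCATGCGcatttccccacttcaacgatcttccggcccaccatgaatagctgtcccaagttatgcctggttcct
Uqcrc1, chr8:118468133-118468212, plus strand: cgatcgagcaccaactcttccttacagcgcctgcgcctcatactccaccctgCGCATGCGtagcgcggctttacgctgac
Ndufa11, chr9:1637484-1637563, plus strand: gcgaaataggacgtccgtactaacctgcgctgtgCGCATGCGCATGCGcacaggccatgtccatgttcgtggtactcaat

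The match began 55 bases before the start in Atp5g2, 58 in Atp5o, 75 in Atp5i, 169 in Atp5j, 244 in Atp5l and 38 in Uqcrc1, and Ndufa11 held a pair of overlapping copies at 96 and 90. Allowing any base where N stands (CGCANGCG) gave 35.4% of member promoters, against 17.0% of promoters of tested genes. Other motifs on both strands were the ETS core CCGGAAG, the site of NRF2/GABP, in 27.7% of members against 17.8% of tested genes, and the YY1 motif AAGATGGC in 21.5% against 5.53%. The SP1 box GGGGCGGGG was in 7.69% against 20.5%, and TATAAA in 9.23% against 6.54%. A match describes the letters and is neither a site nor a cause. NRF1's own message (Nrf1) was at 17.7, 13.6, 18.2, 18.4 and 20.8 CPM in SIRMu-1, 36.1, 38.7 and 36.5 CPM in rMC-1, and 14.5, 15.0, 10.6 and 13.3 CPM in primary cultures. It was high in all 3 rMC-1 libraries, with a log2 fold change of 1.47 ± 0.16 over primary cultures (edgeR adjusted p = 6.57e-06).

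In complex I, 16 of 32 tested members were higher and 0 lower in SIRMu-1 than in the primary cultures (median log2 fold change 0.29), and 18 were higher and 5 lower in rMC-1 than in the primary cultures (median 0.40). Between SIRMu-1 and rMC-1, 6 were higher and 8 lower. Of 11 Ndufb and Ndufc genes of the membrane arm, 6 rose and 0 fell in SIRMu-1, and 5 rose and 2 fell in rMC-1.

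Ndufs6, an accessory subunit of the NADH-oxidising module that binds zinc, rose most among complex I members in SIRMu-1. It had 29.7, 31.5, 29.0, 33.1 and 29.1 CPM in SIRMu-1, 33.8, 23.9 and 28.3 CPM in rMC-1, and 17.4, 12.5, 23.3 and 15.1 CPM in primary cultures. All SIRMu-1 and rMC-1 libraries lay above the primary ones, by a log2 fold change of 0.84 ± 0.17 in SIRMu-1 (edgeR adjusted p = 0.00201) and 0.74 ± 0.19 in rMC-1 (adjusted p = 0.00377). Ndufa5, an accessory subunit of the matrix arm, had 85.5, 87.4, 85.4, 86.3 and 68.4 CPM in SIRMu-1, 132, 100.4 and 127 CPM in rMC-1, and 51.8, 34.5, 59.6 and 58.7 CPM in primary cultures. Its 3 groups did not overlap, with SIRMu-1 between rMC-1, the highest, and primary cultures. This came to a log2 fold change of 0.69 ± 0.16 in SIRMu-1 over primary cultures (adjusted p = 0.00441), 1.23 ± 0.18 in rMC-1 over primary cultures (adjusted p = 7.89e-05) and -0.54 ± 0.17 in SIRMu-1 over rMC-1 (adjusted p = 0.0156).

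In rMC-1 the rise in complex I was led by accessory subunits. Ndufa12, a relative of the assembly factor Ndufaf2, had 23.3, 17.5, 21.4, 24.03 and 23.1 CPM in SIRMu-1, 53.6, 43.1 and 53.6 CPM in rMC-1, and 24.6, 12.5, 16.3 and 23.8 CPM in primary cultures. The rMC-1 libraries stood apart from all others, with a log2 fold change of 1.38 ± 0.22 over primary cultures (edgeR adjusted p = 0.000137) and of -1.20 ± 0.20 for SIRMu-1 over rMC-1 (adjusted p = 0.000314). Ndufa4, the subunit by symbol with the highest CPM in this group and a part of complex IV by later work, had 141, 168, 145, 145 and 119 CPM in SIRMu-1, 289, 261 and 298 CPM in rMC-1, and 129.6, 85.5, 125 and 129 CPM in primary cultures. It too was high in the rMC-1 libraries, while the other 2 groups overlapped. As a log2 fold change this was 1.27 ± 0.16 in rMC-1 over primary cultures (adjusted p = 2.08e-05) and -0.98 ± 0.15 in SIRMu-1 over rMC-1 (adjusted p = 0.000128).

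Ndufs4, which is mutated in Leigh syndrome in humans, was at 52.0, 59.9, 53.5, 48.9 and 40.8 CPM in SIRMu-1, 82.9, 91.0 and 93.6 CPM in rMC-1, and 48.2, 43.7, 47.7 and 56.7 CPM in primary cultures. SIRMu-1 and primary cultures overlapped, and rMC-1 lay above both. Its log2 fold change was 0.86 ± 0.13 in rMC-1 over primary cultures (edgeR adjusted p = 0.000112) and -0.81 ± 0.12 in SIRMu-1 over rMC-1 (adjusted p = 0.000158). Ndufb7, a membrane-arm subunit on the side of the intermembrane space, had 57.3, 61.9, 63.9, 62.6 and 48.5 CPM in SIRMu-1, 107, 83.8 and 107 CPM in rMC-1, and 49.1, 28.0, 40.9 and 53.6 CPM in primary cultures. It was highest in rMC-1, with a log2 fold change of 1.21 ± 0.19 over primary cultures (adjusted p = 0.000167), and SIRMu-1 overlapped the primary cultures. The rise of Ndufb7 in SIRMu-1 over primary cultures, 0.45 ± 0.17 (adjusted p = 0.049), passed with all libraries and without Primary MC replicate 1, Primary MC replicate 4 or SIRMu-1 replicate 5, and was lost without any 1 of the other 9, for example without Primary MC replicate 2 (0.30, adjusted p = 0.0987).

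A smaller set of complex I genes went the other way in rMC-1. Ndufa10, an accessory subunit related to nucleoside kinases, had 50.1, 59.0, 54.5, 48.2 and 55.6 CPM in SIRMu-1, 30.6, 28.6 and 31.2 CPM in rMC-1, and 56.1, 51.0, 58.2 and 58.4 CPM in primary cultures. The rMC-1 libraries were low and close together, and the other 2 groups overlapped. The log2 fold change was -0.89 ± 0.10 in rMC-1 over primary cultures (edgeR adjusted p = 9.79e-06) and 0.83 ± 0.10 in SIRMu-1 over rMC-1 (adjusted p = 1.89e-05). The counts of Ndufa12 per count of Ndufa10 thus ranged from 0.297 to 0.499 in SIRMu-1, from 1.51 to 1.75 in rMC-1 and from 0.244 to 0.438 in primary cultures, a ratio that does not depend on the scaling between libraries.

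Ndufb4, a membrane-arm subunit at low counts, had 10.8, 9.53, 12.6, 10.5 and 8.5 CPM in SIRMu-1, 6.24, 4.2 and 4.08 CPM in rMC-1, and 14.4, 7.78, 10.6 and 15.6 CPM in primary cultures. It was low in rMC-1, with a log2 fold change of -1.32 ± 0.26 over primary cultures (edgeR adjusted p = 0.000792) and of 1.10 ± 0.25 for SIRMu-1 over rMC-1 (adjusted p = 0.00251). With library totals the last value was 0.65 (adjusted p = 0.0522). Ndufb3, a small membrane-arm subunit, was at 16.8, 17.4, 17.4, 16.9 and 13.4 CPM in SIRMu-1, 11.6, 9.11 and 11.1 CPM in rMC-1, and 19.1, 14.3, 16.7 and 21.7 CPM in primary cultures. It was again low in rMC-1, with a log2 fold change of -0.76 ± 0.17 over primary cultures (adjusted p = 0.00152) that was -0.30 (adjusted p = 0.163) with library totals. Ndufv2, chosen after its values were seen, binds the flavin subunit Ndufv1 in the NADH-oxidising module. Its counts per count of Ndufv1 were 0.962 to 1.21 in SIRMu-1, 0.513 to 0.520 in rMC-1 and 0.900 to 1.01 in primary cultures, so the ratio was low in rMC-1 and the other groups overlapped.

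Complex II has 4 nuclear genes and no mitochondrial one, and its genes moved apart in rMC-1. Of the 4, 1 was higher and 0 lower in SIRMu-1 than in the primary cultures (Sdhb, median 0.13), and 2 were higher and 1 lower in rMC-1 than in the primary cultures (median 0.23). Sdhd, a membrane anchor that binds heme and ubiquinone together with Sdhc, had 53.5, 50.0, 45.7, 46.2 and 40.6 CPM in SIRMu-1, 92.0, 94.9 and 99.7 CPM in rMC-1, and 40.7, 42.7, 44.5 and 44.5 CPM in primary cultures. It was about equally high in the 3 rMC-1 libraries and overlapped between the other groups. Its log2 fold change was 1.15 ± 0.10 in rMC-1 over primary cultures (edgeR adjusted p = 1.61e-06) and -1.02 ± 0.09 in SIRMu-1 over rMC-1 (adjusted p = 3.99e-06).

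Sdhc, the partner anchor, had 118, 146, 116, 114 and 119.7 CPM in SIRMu-1, 97.2, 82.7 and 90.6 CPM in rMC-1, and 114, 103, 124 and 111 CPM in primary cultures. Here the rMC-1 libraries were the low ones. Its fall in rMC-1 against primary cultures, -0.33 ± 0.11 (edgeR adjusted p = 0.0226), was lost without rMC-1 replicate 2 (-0.20, adjusted p = 0.17), rMC-1 replicate 3 (-0.26, adjusted p = 0.105), Primary MC replicate 3 (-0.28, adjusted p = 0.0594) or SIRMu-1 replicate 5 (-0.26, adjusted p = 0.0549), and was 0.15 (adjusted p = 0.223) with library totals. Between SIRMu-1 and rMC-1 the value was 0.45 ± 0.11 (adjusted p = 0.00383), 0.30 (adjusted p = 0.0505) without rMC-1 replicate 2 and -0.01 (adjusted p = 0.966) with library totals. The ratio of Sdhd to Sdhc counts, free of that scaling, was 0.339 to 0.456 in SIRMu-1, 0.947 to 1.15 in rMC-1 and 0.357 to 0.416 in primary cultures.

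Sdha and Sdhb form the catalytic part of the enzyme. Sdha, the flavoprotein that oxidises succinate and the member of complex II with the highest CPM, had 108, 113, 106, 102 and 122 CPM in SIRMu-1, 131, 141 and 130.1 CPM in rMC-1, and 119.6, 125, 119 and 122 CPM in primary cultures. It was lower in SIRMu-1 than in rMC-1 (-0.28 ± 0.08, edgeR adjusted p = 0.00961), and neither line differed from primary cultures past the threshold (adjusted p = 0.14 for SIRMu-1 and 0.161 for rMC-1). Without SIRMu-1 replicate 5 both did, at -0.21 for SIRMu-1 (adjusted p = 0.0349) and 0.20 for rMC-1 (adjusted p = 0.0307). Sdhb, the iron-sulfur subunit, had 78.7, 69.4, 75.9, 76.6 and 64.9 CPM in SIRMu-1, 69.9, 72.6 and 75.3 CPM in rMC-1, and 67.8, 52.1, 54.6 and 56.4 CPM in primary cultures. The lines overlapped each other, and both were higher than primary cultures, by 0.34 ± 0.10 in SIRMu-1 (adjusted p = 0.0136) and 0.33 ± 0.11 in rMC-1 (adjusted p = 0.0175). SIRMu-1 also overlapped primary cultures, since its replicate 5 lay below Primary MC replicate 1.

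Under TMM scaling, complex III had a summed level of 871 ± 55.2 CPM in SIRMu-1 (SD, n = 5), against 779 ± 60.8 CPM in rMC-1 (n = 3) and 673 ± 92.7 CPM in primary cultures (n = 4). Of its 8 members, 5 rose and 0 fell in SIRMu-1 against primary cultures (median 0.33), 3 rose and 0 fell in rMC-1 against primary cultures (median 0.20), and 4 were higher and 0 lower in SIRMu-1 than in rMC-1 (median 0.20). Those 4 calls rest on TMM scaling: with library totals the values were 0.08 for Uqcrb (edgeR adjusted p = 0.572), 0.12 for Uqcrc2 (adjusted p = 0.303), 0.12 for Uqcr10 (adjusted p = 0.536) and 0.05 for Uqcrq (adjusted p = 0.831).

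Uqcrb, which binds ubiquinone, had 80.8, 89.9, 93.1, 92.1 and 77.6 CPM in SIRMu-1, 62.1, 55.3 and 63.2 CPM in rMC-1, and 61.8, 45.3, 54.4 and 48.7 CPM in primary cultures. SIRMu-1 lay above both other groups, which overlapped. The log2 fold change was 0.72 ± 0.11 in SIRMu-1 over primary cultures (edgeR adjusted p = 0.000282), 0.20 ± 0.12 in rMC-1 over primary cultures (adjusted p = 0.161; 0.28 and adjusted p = 0.0461 without Primary MC replicate 1, 0.32 and adjusted p = 0.0477 without rMC-1 replicate 2) and 0.53 ± 0.12 in SIRMu-1 over rMC-1 (adjusted p = 0.00204). Uqcrc2, a core subunit that faces the matrix, was also highest in SIRMu-1, with 145, 144, 147, 146 and 159.5 CPM in SIRMu-1, 100.4, 99.4 and 100.3 CPM in rMC-1, and 109, 108, 128 and 113 CPM in primary cultures. Under TMM scaling the 3 groups did not overlap, with rMC-1 the lowest. The log2 fold change in rMC-1 over primary cultures, -0.20 ± 0.09, did not pass (edgeR adjusted p = 0.0636). With library totals this value was 0.28 (adjusted p = 0.0291), in the other direction. Uqcrc2 was 0.37 ± 0.08 higher in SIRMu-1 than in the primary cultures (adjusted p = 0.00241) and 0.57 ± 0.09 higher than in rMC-1 (adjusted p = 0.000131), both on the log2 scale. Its partner core subunit Uqcrc1 had its highest mean in rMC-1, with 137, 115, 137, 138 and 124 CPM in SIRMu-1, 152, 130.3 and 157 CPM in rMC-1, and 112, 92.4, 112 and 112 CPM in primary cultures. Uqcrc1 was higher in rMC-1 than in the primary cultures by 0.45 ± 0.11 (adjusted p = 0.0031) and in SIRMu-1 by 0.28 ± 0.10 (adjusted p = 0.0336). The second call was lost without any 1 of Primary MC replicate 2, rMC-1 replicates 1 and 3 or SIRMu-1 replicates 1, 3 and 4, with values of 0.22 (adjusted p = 0.0906) without Primary MC replicate 2 and 0.26 without each of the others.

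Uqcrfs1, the Rieske iron-sulfur protein, had 93.6, 117, 125, 103 and 104 CPM in SIRMu-1, 119, 113 and 119 CPM in rMC-1, and 78.4, 59.7, 81.7 and 70.6 CPM in primary cultures. Both lines lay above the primary cultures and overlapped each other, with log2 fold changes of 0.58 ± 0.11 in SIRMu-1 (edgeR adjusted p = 0.00171) and 0.69 ± 0.13 in rMC-1 (adjusted p = 0.000493). Uqcrq, the member of complex III with the highest CPM, had 168, 150.4, 171, 176 and 119.6 CPM in SIRMu-1, 119, 87.9 and 126 CPM in rMC-1, and 135, 76.6, 122 and 106 CPM in primary cultures. Its groups overlapped, and its rise in SIRMu-1 over primary cultures (0.51 ± 0.18, adjusted p = 0.0333) was lost without Primary MC replicate 2 (0.38, adjusted p = 0.0819) or 4 (0.50, adjusted p = 0.0708) or SIRMu-1 replicate 1 (0.49, adjusted p = 0.0656), 3 (0.48, adjusted p = 0.0687) or 4 (0.47, adjusted p = 0.0729). Its higher level in SIRMu-1 than in rMC-1 (0.50 ± 0.20, adjusted p = 0.041) was lost without any 1 rMC-1 library, down to 0.27 (adjusted p = 0.291) without rMC-1 replicate 2, and without SIRMu-1 replicates 1, 2, 3 or 4, with values of 0.46 to 0.52.

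The other 3 members of complex III differed among themselves. Uqcr10 was 0.57 ± 0.16 higher in SIRMu-1 than in rMC-1 (edgeR adjusted p = 0.0086; 0.42 and adjusted p = 0.0703 without rMC-1 replicate 2), with means of 69.0 ± 5.18 CPM in SIRMu-1, 46.6 ± 3.47 CPM in rMC-1 and 57.9 ± 13.0 CPM in primary cultures (SD, n = 5, 3 and 4). Uqcr11 was 0.50 ± 0.14 higher in rMC-1 than in the primary cultures (adjusted p = 0.0074), with means of 70.2 ± 5.8 CPM in SIRMu-1, 86.4 ± 11.2 CPM in rMC-1 and 61.2 ± 9.51 CPM in primary cultures. Uqcrh, the hinge protein that helps cytochrome c1 meet cytochrome c, passed in no comparison, with 101 ± 17.0 CPM in SIRMu-1, 111 ± 4.62 CPM in rMC-1 and 96.8 ± 26.2 CPM in primary cultures.

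In complex IV the isoforms and associated factors carried the larger differences. Of 11 tested members, 2 were higher and 1 lower in SIRMu-1 than in the primary cultures (median 0.22), 5 were higher and 3 lower in rMC-1 than in the primary cultures (median 0.36), and 2 were higher and 3 lower in SIRMu-1 than in rMC-1. Cox7a2l, which joins complexes III and IV in respiratory supercomplexes, had 199.8, 244, 222, 193 and 208 CPM in SIRMu-1, 68.1, 105 and 82.4 CPM in rMC-1, and 143, 99.7, 139 and 122 CPM in primary cultures. SIRMu-1 lay above every other library, and rMC-1 replicate 2 overlapped the lowest primary culture. The log2 fold change was 0.76 ± 0.15 in SIRMu-1 over primary cultures (edgeR adjusted p = 0.00142), 1.32 ± 0.16 in SIRMu-1 over rMC-1 (adjusted p = 3.23e-05) and -0.56 ± 0.17 in rMC-1 over primary cultures (adjusted p = 0.00923). The last was -0.09 (adjusted p = 0.634) with library totals and -0.36 (adjusted p = 0.0706) without rMC-1 replicate 1.

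Cox7a2, the isoform found in most tissues and a relative of Cox7a2l, was at low counts with 5.76, 6.17, 6.52, 5.0 and 5.21 CPM in SIRMu-1, 9.54, 8.43 and 9.95 CPM in rMC-1, and 7.93, 3.78, 4.74 and 7.45 CPM in primary cultures. It was high in rMC-1, where Cox7a2l was low, with a log2 fold change of -0.70 ± 0.24 for SIRMu-1 over rMC-1 (edgeR adjusted p = 0.0213). Its rise in rMC-1 over primary cultures, 0.64 ± 0.25 (adjusted p = 0.0364), was lost without Primary MC replicate 2 (0.47, adjusted p = 0.0756) or 3 (0.54, adjusted p = 0.0854) or rMC-1 replicate 1 (0.68, adjusted p = 0.0552) or 3 (0.66, adjusted p = 0.0652). Counts of Cox7a2l per count of Cox7a2 ranged from 34.0 to 40.0 in SIRMu-1, from 7.14 to 12.5 in rMC-1 and from 16.3 to 29.4 in primary cultures, and the 3 groups did not overlap. Reads that fit several places were left out of the counts, so a gene with close copies such as Cox7a2 or the Atp5g genes may be undercounted.

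Cox6a1 and Cox6a2 are the broadly used form and the heart and skeletal muscle form of 1 subunit. Cox6a1, the member of complex IV with the highest CPM, had 239, 236, 226, 245 and 221 CPM in SIRMu-1, 304, 245 and 306 CPM in rMC-1, and 206, 135, 204 and 210.4 CPM in primary cultures. Its rise in rMC-1 over primary cultures was 0.59 ± 0.15 on the log2 scale (edgeR adjusted p = 0.00367), and for SIRMu-1 the value was 0.31 ± 0.13 (adjusted p = 0.0773).

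Cox6a2 was nearly absent from rMC-1 alone. It had 10.6, 34.2, 18.7, 13.8 and 2.62 CPM in SIRMu-1, 0.057, 0.0824 and 0.105 CPM in rMC-1, and 21.2, 30.8, 27.1 and 1.32 CPM in primary cultures. SIRMu-1 replicate 5 and Primary MC replicate 4 were low in their groups, and SIRMu-1 and primary cultures overlapped. As summed counts, 10 in rMC-1 against 1997 in primary cultures was a 250-fold lower level (95% counting interval 136 to 522), and 2328 in SIRMu-1 against 10 in rMC-1 was a 200.5-fold higher one (109 to 419). Both differences passed (edgeR adjusted p = 0.000337 for SIRMu-1 against rMC-1 and 0.000219 for rMC-1 against primary cultures). Cox6a2 passed the filter on low counts through SIRMu-1 and primary cultures. Its low calls in rMC-1, which are among the counts above, were thus fixed in part by the filter. The intervals cover counting error only and not the spread between libraries. Counts of Cox6a2 per count of Cox6a1 were 0.0119 to 0.145 in SIRMu-1, 0.000188 to 0.000345 in rMC-1 and 0.00628 to 0.228 in primary cultures. A list of 6 striated muscle genes summed to 2.38 to 6.64 CPM in SIRMu-1, 1.50 to 2.71 CPM in rMC-1 and 6.57 to 18.7 CPM in primary cultures, with Ckm and Myod1 at or near 0 throughout.

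The other restricted forms were close to the limit of detection. Cox6b2, the form named for testis, had 4 counts in all in SIRMu-1, 2 in rMC-1 and 63 in primary cultures. The primary counts were 28, 12, 1 and 22, so Primary MC replicate 3 lay within the SIRMu-1 range of 0 to 2. Cox4i2, an oxygen-regulated form of the Cox4 subunit that the symbol rule does not take in, had 3 counts in SIRMu-1, 0 in rMC-1 and 163 in primary cultures. Of the primary counts, 89 were in Primary MC replicate 2 and 21, 19 and 34 in replicates 1, 3 and 4. Cox4i2 passed the filter on low counts through the primary cultures, so its lower calls in both lines were fixed in part by the filter. Its partner form Cox4i1 had 272 ± 8.08 CPM in SIRMu-1, 369 ± 15.1 CPM in rMC-1 and 202 ± 42.2 CPM in primary cultures (SD, n = 5, 3 and 4). Cox7b, a small subunit, rose in both lines, by 0.64 ± 0.15 in SIRMu-1 over primary cultures (edgeR adjusted p = 0.00411) and 1.14 ± 0.16 in rMC-1 over primary cultures (adjusted p = 7.12e-05). Cox8a, the form used in most tissues, was lower in SIRMu-1 than in rMC-1 (-0.40 ± 0.12, adjusted p = 0.00966).

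**Figure D4:**
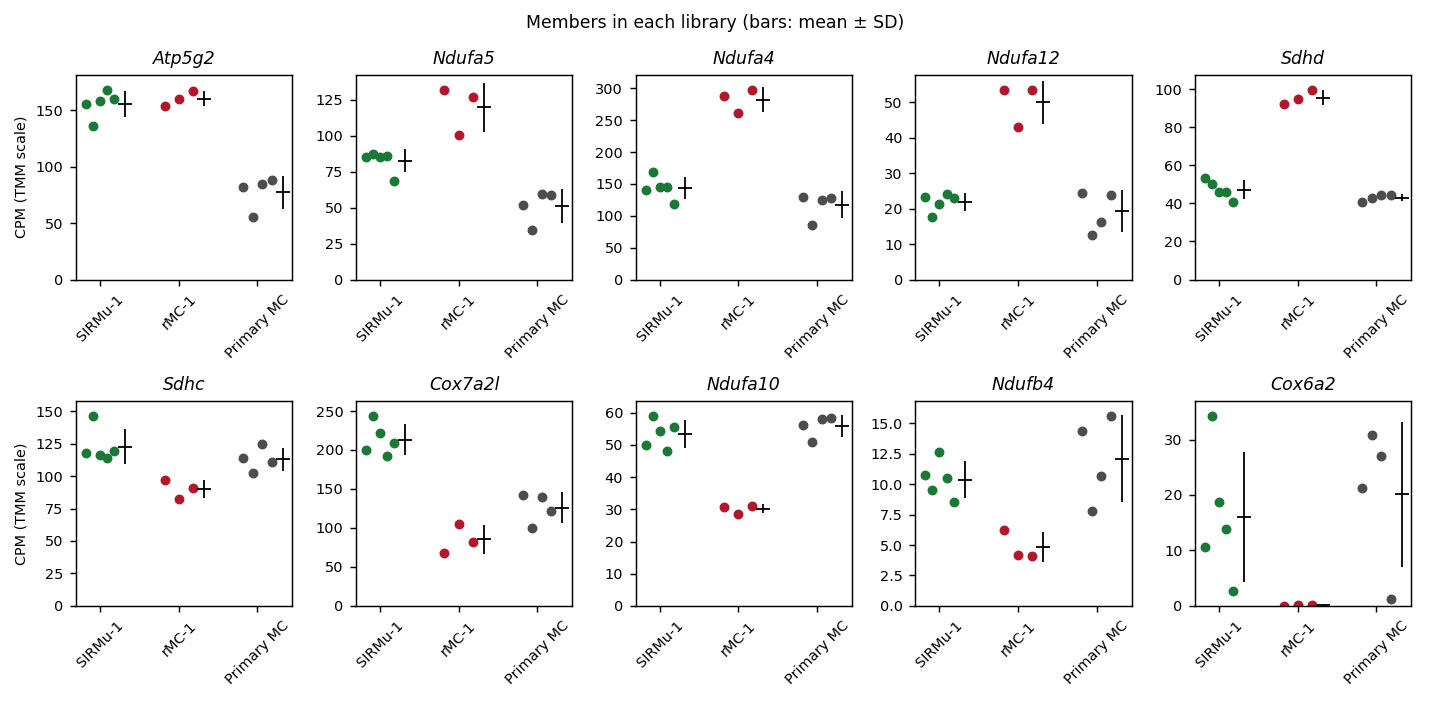
CPM of 10 members in every library, with SIRMu-1, rMC-1 and primary cultures from left to right and a bar for each group's mean ± SD. Atp5g2 is high in both lines, Ndufa12, Ndufa4 and Sdhd are high in rMC-1, Cox7a2l is high in SIRMu-1, and Ndufa10, Ndufb4 and Cox6a2 are low in rMC-1.

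ATP synthase had the largest median of the 5 complexes in both comparisons with primary cultures, with 9 of 16 tested members higher and 1 lower in SIRMu-1 than in the primary cultures (median 0.42) and 10 higher and 2 lower in rMC-1 than in the primary cultures (median 0.57). The lower ones were Atp5sl in both lines and Atp5s in rMC-1, which are linked to assembly rather than to the finished enzyme. Between SIRMu-1 and rMC-1, 3 were higher (Atp5e, Atp5s and Atp5sl) and 4 lower. The 3 tested genes of the peripheral stalk, which holds the catalytic head still, rose in both lines (Atp5h, Atp5j and Atp5o), with log2 fold changes of 0.47 to 0.70 in SIRMu-1 and 0.44 to 0.69 in rMC-1. Of 5 genes of the catalytic head and its central stalk, 2 rose in SIRMu-1 (Atp5a1 and Atp5e) and 3 rose in rMC-1 (Atp5a1, Atp5b and Atp5d).

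Atp5g2 showed the largest rise of any member in SIRMu-1. It is 1 of 3 genes, with Atp5g1 and Atp5g3, whose precursors mature to the same c subunit of the rotating ring, and its promoter is among those printed. It had 155, 136, 158, 168 and 160.1 CPM in SIRMu-1, 154, 159.9 and 167 CPM in rMC-1, and 82.0, 55.9, 84.5 and 88.0 CPM in primary cultures. All libraries of both lines lay above all primary cultures, and the lines overlapped. The log2 fold change was 1.00 ± 0.13 in SIRMu-1 over primary cultures (edgeR adjusted p = 0.000117), 1.05 ± 0.14 in rMC-1 over primary cultures (adjusted p = 4.73e-05) and -0.04 ± 0.14 in SIRMu-1 over rMC-1 (adjusted p = 0.799).

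Atp5g3 had 162, 154, 159.6, 174 and 151 CPM in SIRMu-1, 233, 189 and 250.4 CPM in rMC-1, and 138, 93.8, 127 and 134 CPM in primary cultures. The 3 groups did not overlap, and rMC-1 was the high one, with log2 fold changes of 0.86 ± 0.14 in rMC-1 over primary cultures (edgeR adjusted p = 0.000181) and -0.49 ± 0.13 in SIRMu-1 over rMC-1 (adjusted p = 0.00743). Its rise in SIRMu-1 over primary cultures, 0.38 ± 0.13 (adjusted p = 0.0272), was lost without Primary MC replicate 2 (0.27, adjusted p = 0.0582), SIRMu-1 replicate 1 (0.37, adjusted p = 0.0507) or SIRMu-1 replicate 4 (0.35, adjusted p = 0.0626). Atp5g1 had 75.9 ± 14.8 CPM in SIRMu-1, 91.1 ± 14.8 CPM in rMC-1 and 54.5 ± 11.9 CPM in primary cultures (SD, n = 5, 3 and 4). It was higher in rMC-1 than in the primary cultures (0.74 ± 0.21, adjusted p = 0.00709), and in SIRMu-1 it missed the threshold (0.48 ± 0.19, adjusted p = 0.0529), which it passed without SIRMu-1 replicate 5 (0.54, adjusted p = 0.0287).

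Within the counts of these 3 genes, Atp5g2 made up 35.0% to 43.4% in SIRMu-1, 31.9% to 37.8% in rMC-1 and 29.5% to 31.1% in primary cultures. Atp5g3 made up 39.5% to 41.6% in SIRMu-1, 44.6% to 48.2% in rMC-1 and 46.6% to 50.3% in primary cultures. The Atp5g2 share was above the primary range in every library of both lines, and the Atp5g3 share was below it in every SIRMu-1 library.

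**Figure D5:**
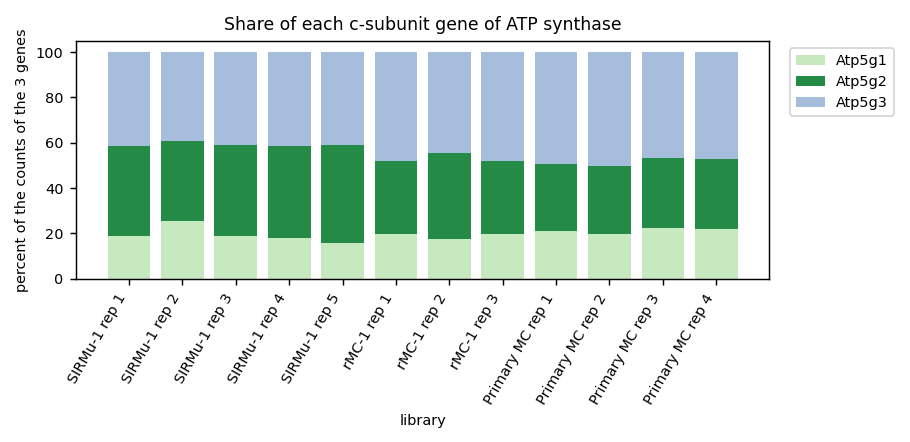
Share of the summed counts of Atp5g1, Atp5g2 and Atp5g3 that each gene took in every library, in percent, with SIRMu-1, rMC-1 and primary cultures from left to right. Atp5g2 reaches 43.4% in SIRMu-1 and stays at or under 31.1% in primary cultures.

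Atp5b, the catalytic beta subunit and the member with the highest CPM of all, had 853, 737, 798, 843 and 892 CPM in SIRMu-1, 1522, 1267 and 1404 CPM in rMC-1, and 836, 706, 784 and 832 CPM in primary cultures. It was high in rMC-1 and overlapped between SIRMu-1 and primary cultures, with log2 fold changes of 0.82 ± 0.12 in rMC-1 over primary cultures (edgeR adjusted p = 5.92e-05) and -0.76 ± 0.11 in SIRMu-1 over rMC-1 (adjusted p = 9.33e-05). Its partner alpha subunit Atp5a1 rose in both lines, by 0.33 ± 0.10 in SIRMu-1 (adjusted p = 0.0186) and 0.48 ± 0.11 in rMC-1 (adjusted p = 0.00282) over primary cultures. Atp5e, the epsilon subunit of the central stalk, had 129, 150.3, 130.3, 132 and 113 CPM in SIRMu-1, 95.1, 77.3 and 92.2 CPM in rMC-1, and 99.4, 58.3, 106 and 94.1 CPM in primary cultures. It was high in SIRMu-1, by 0.55 ± 0.16 over primary cultures (adjusted p = 0.0148) and 0.57 ± 0.18 over rMC-1 (adjusted p = 0.0138). The second value was 0.39 (adjusted p = 0.107) without rMC-1 replicate 2, 0.51 (adjusted p = 0.0548) without rMC-1 replicate 3 and 0.12 (adjusted p = 0.556) with library totals.

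Of the other genes with printed promoters, Atp5o, Atp5j, Atp5l and Ndufa11 were chosen after their values were seen. Atp5o, the stalk protein that confers sensitivity to oligomycin, had 153, 157, 141, 145 and 112 CPM in SIRMu-1, 128, 108 and 121 CPM in rMC-1, and 98.1, 63.5, 95.8 and 91.4 CPM in primary cultures. Both lines lay above primary cultures, by 0.70 ± 0.14 in SIRMu-1 (edgeR adjusted p = 0.00215) and 0.44 ± 0.16 in rMC-1 (adjusted p = 0.0256). Ndufa11, a membrane-arm subunit of complex I, rose by 0.58 ± 0.12 in SIRMu-1 (adjusted p = 0.00257) and 0.89 ± 0.14 in rMC-1 (adjusted p = 0.000126) over primary cultures. Atp5i, the subunit e that helps ATP synthase form dimers, rose by 0.60 ± 0.18 in SIRMu-1 over primary cultures (adjusted p = 0.0178), and its value in rMC-1, 0.31 ± 0.20, did not pass (adjusted p = 0.187). Atp5j, coupling factor 6 of the stalk, rose in both lines, by 0.52 ± 0.14 in SIRMu-1 (adjusted p = 0.00875) and 0.66 ± 0.15 in rMC-1 (adjusted p = 0.00212) over primary cultures. Atp5l, the subunit g beside Atp5i, did not pass, at 0.25 ± 0.19 in SIRMu-1 (adjusted p = 0.297) and -0.21 ± 0.22 in rMC-1 (adjusted p = 0.407).

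The 2 Atp5 symbols that RefSeq lists as Dmac2 and Dmac2l were low in rMC-1. Atp5sl (Dmac2) had 32.0, 42.3, 28.7, 26.6 and 28.5 CPM in SIRMu-1, 16.0, 17.3 and 19.0 CPM in rMC-1, and 62.2, 42.3, 31.7 and 44.9 CPM in primary cultures. Its log2 fold change was -1.38 ± 0.22 in rMC-1 over primary cultures (edgeR adjusted p = 0.000178) and 0.86 ± 0.21 in SIRMu-1 over rMC-1 (adjusted p = 0.00393; 0.40 and adjusted p = 0.114 with library totals). The fall in SIRMu-1 against primary cultures, -0.52 ± 0.19 (adjusted p = 0.0404), with groups that overlapped, was lost without any 1 of Primary MC replicates 1, 2 and 4 or SIRMu-1 replicates 1, 3, 4 and 5, and was -0.32 (adjusted p = 0.148) without Primary MC replicate 1. Atp5s (Dmac2l), chosen after its values were seen, had 10.2, 10.0, 9.16, 7.8 and 8.5 CPM in SIRMu-1, 1.71, 2.37 and 1.74 CPM in rMC-1, and 12.7, 9.24, 7.56 and 6.52 CPM in primary cultures. It was low in the 3 rMC-1 libraries, at -2.21 ± 0.26 over primary cultures (adjusted p = 1.36e-05) and 2.23 ± 0.25 for SIRMu-1 over rMC-1 (adjusted p = 1.57e-05).

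Genes that serve the same machinery were counted beside the members. The lists below are read beside all genes tested, of which 21.7% were higher and 24.4% lower in SIRMu-1 than in the primary cultures. The shares were 31.9% and 38.9% in rMC-1 against primary cultures, and 32.7% and 30.5% in SIRMu-1 against rMC-1. Of 8 tested nuclear subunits outside the symbol rule, 3 were higher and 1 lower in SIRMu-1 than in the primary cultures, 5 were higher and 1 lower in rMC-1 than in the primary cultures, and 0 were higher and 5 lower in SIRMu-1 than in rMC-1. The lower one against primary cultures was Cox4i2 in both lines, a call fixed in part by the filter. Cycs, the mobile carrier cytochrome c, had 34.6, 32.2, 30.5, 35.4 and 30.9 CPM in SIRMu-1, 98.3, 64.3 and 86.4 CPM in rMC-1, and 25.0, 20.6, 21.5 and 27.3 CPM in primary cultures. Its 3 groups did not overlap, with log2 fold changes of 0.47 ± 0.13 in SIRMu-1 over primary cultures (edgeR adjusted p = 0.0119), 1.81 ± 0.15 in rMC-1 over primary cultures (adjusted p = 1.02e-06) and -1.34 ± 0.14 in SIRMu-1 over rMC-1 (adjusted p = 8.46e-06).

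Of 41 assembly factors, 14 were higher and 3 lower in SIRMu-1 than in the primary cultures, 11 were higher and 9 lower in rMC-1 than in the primary cultures, and 16 were higher and 5 lower in SIRMu-1 than in rMC-1. Against primary cultures, 41.5% passed in SIRMu-1 and 48.8% in rMC-1, where 46.1% and 70.8% of all genes did. Lyrm7, which stabilises the Rieske protein before it enters complex III, was at 7.35 ± 1.7 CPM in SIRMu-1, 2.5 ± 0.321 CPM in rMC-1 and 10.8 ± 1.4 CPM in primary cultures (SD, n = 5, 3 and 4). Its log2 fold change in rMC-1 over primary cultures was -2.10 ± 0.24 (edgeR adjusted p = 1.24e-05). Timmdc1, a complex I assembly factor, was at 29.1 ± 4.54 CPM in SIRMu-1, 11.8 ± 0.593 CPM in rMC-1 and 28.9 ± 3.54 CPM in primary cultures, with -1.29 ± 0.16 in rMC-1 over primary cultures (adjusted p = 1.94e-05). Acad9, another complex I assembly factor, went the other way in rMC-1, by 1.10 ± 0.10 over primary cultures (adjusted p = 3.09e-06).

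Among 18 regulators of mitochondrial biogenesis, 8 were higher and 2 lower in SIRMu-1 than in the primary cultures, 10 were higher and 2 lower in rMC-1 than in the primary cultures, and 3 were higher and 10 lower in SIRMu-1 than in rMC-1. Tfam, which packages and transcribes mitochondrial DNA, had 33.1, 32.0, 29.0, 32.3 and 37.5 CPM in SIRMu-1, 96.4, 95.4 and 113 CPM in rMC-1, and 20.0, 18.2, 21.1 and 18.6 CPM in primary cultures. Its groups were well apart, with log2 fold changes of 0.75 ± 0.10 in SIRMu-1 (edgeR adjusted p = 0.000123) and 2.38 ± 0.11 in rMC-1 (adjusted p = 2.93e-08) over primary cultures. Ppargc1a, the coactivator known for driving mitochondrial biogenesis, had 3 counts in SIRMu-1, 1 in rMC-1 and 214 in primary cultures, and the 95% counting interval for the lower level in SIRMu-1 was 35.0-fold to 507-fold. It passed the filter on low counts through the primary cultures, so its lower calls in both lines were fixed in part by the filter. Of 17 citric acid cycle genes, 6 rose and 2 fell in SIRMu-1 and 5 rose and 3 fell in rMC-1 against primary cultures, and 6 were higher and 3 lower in SIRMu-1 than in rMC-1. Against primary cultures 47.1% passed in either line, where 46.1% of all genes passed in SIRMu-1 and 70.8% in rMC-1. Idh2, the mitochondrial NADP-dependent isocitrate dehydrogenase, rose in both lines, by 1.14 ± 0.25 in SIRMu-1 (adjusted p = 0.00306) and 1.12 ± 0.27 in rMC-1 (adjusted p = 0.00308).

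Glycolysis, which makes ATP without oxygen, was counted as well. Of 20 genes tested, 0 were higher and 10 lower in SIRMu-1 than in the primary cultures, 8 were higher and 4 lower in rMC-1 than in the primary cultures, and 1 was higher and 10 lower in SIRMu-1 than in rMC-1. Slc16a3, which exports lactate from glycolytic cells, had 0.0142 ± 0.0318 CPM in SIRMu-1, 0.203 ± 0.195 CPM in rMC-1 and 29.4 ± 13.7 CPM in primary cultures (SD, n = 5, 3 and 4). It passed the filter on low counts through the primary cultures, so its lower calls in both lines were fixed in part by the filter. Ldhb, the lactate dehydrogenase subunit that favours use of lactate, had 31.2 ± 5.32 CPM in SIRMu-1, 9.98 ± 0.82 CPM in rMC-1 and 40.8 ± 8.3 CPM in primary cultures, with a log2 fold change of -2.03 ± 0.19 in rMC-1 over primary cultures (edgeR adjusted p = 3.08e-06). The largest rises in rMC-1 over primary cultures were 1.92 ± 0.29 for Slc16a1 (adjusted p = 0.0001135) and 1.75 ± 0.67 for Aldoc (adjusted p = 0.0332). Aldoc was lower in SIRMu-1 than in the primary cultures, at -5.04 ± 0.73 (adjusted p = 0.000238). Of 22 outer membrane and import genes, 9 rose and 1 fell in SIRMu-1 and 10 rose and 2 fell in rMC-1 against primary cultures, and 2 were higher and 4 lower in SIRMu-1 than in rMC-1.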

How the data were processed

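Poly(A) RNA from 12 cultures was made into KAPA stranded libraries and sequenced on a NextSeq500, per the labels' protocols. The submitters' processing notes name cutadapt 1.8.1, STAR 2.5.3a, edgeR 3.18.1 and the build rn6; how strand was handled in counting is not given there. What the authors deposited are raw read counts per gene for each library. Non-gene lines were left out of library sizes: 24.2% to 30.3% of reads had no feature, 9.47% to 12.3% mapped to several places and 1.84% to 2.54% were unmapped, which left 55.8% to 63.0% in genes.

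Counts were filtered with filterByExpr, scaled by TMM and fitted over 3 groups with the quasi-likelihood test of edgeR 4.0.16 (limma 3.58.1, R 4.3.3; 9 residual degrees of freedom, 8 with SIRMu-1 split by drugs). Benjamini-Hochberg adjustment covered all 11321 genes tested; 5994 others were not tested. A call is an adjusted p under 0.05, and SEs are the log2 fold change over the square root of F. Intervals on summed counts are exact, at 95%, and cover counting error only. Alternatives were library totals, DESeq2 1.42.0, both other filters, the groups compared alone, a replicate block, libraries that share a file-name code summed, SIRMu-1 with drugs only, and each library left out.

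Members and lists were chosen with earlier results of these data known. Named are the 4 largest called changes each way with mean log2 CPM of at least 3 and groups apart in each comparison, the member with the highest CPM per complex, isoform sets, all Sdh and Uqcr genes and members at low counts; from the lists, at most the 2 largest called changes each way. No gene lengths were used, so levels are not compared between genes. The values of 1 member are not reported here by name; it is included in all counts and sums.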

Additional observations from a re-analysis of the deposited data

Results flagged for a closer look

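Of 82 sets of values checked in SIRMu-1 and primary cultures, 15 had 1 library far from the rest of its group, by a gap to its nearest neighbour that is large for the group's range. The rMC-1 libraries were not checked in this way, and rMC-1 replicate 2 was the lowest of its group for 57 of 71 members. Chance alone gives about 1 in 20, and members of 1 library are not independent. Of the 15, 10 were low values of Primary MC replicate 2. Its summed CPM over all members was 4755, against 6018 to 6178 in the other primary cultures, with 1352 against 1695 to 1757 for complex I, 533.9 against 708.5 to 725.2 for complex III, 649.8 against 895.3 to 916.9 for complex IV and 1896 against 2362 to 2437 for complex V. Among single genes it had 85.5 CPM of Ndufa4 (others 124.5 to 129.6), 135.3 of Cox6a1 (203.6 to 210.4), 36.7 of Atp5g1 (58.3 to 61.5), 47.1 of Uqcr11 (64.7 to 67.6) and 92.4 of Uqcrc1 (111.5 to 112). The same library was the lowest of 4 for 60 of 71 members, and its summed CPM of 77 cytosolic ribosomal protein genes was 9540, against 13456 to 15839 in the other primary cultures. This ribosomal set was chosen after the members' values were seen. It summed to 30433 to 35032 CPM in SIRMu-1 and 28980 to 31271 CPM in rMC-1, so it too was higher in both lines than in primary cultures.

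SIRMu-1 replicate 5, at the highest passage of its line and with drugs, was low for the summed CPM of all members (6713, others 7155 to 7323), Ndufa5 (68.4, others 85.4 to 87.4) and Ndufb3 (13.45, others 16.8 to 17.4), and high for Uqcrc2 (159.5, others 143.7 to 146.8). SIRMu-1 replicate 2 was high for Sdhc (146.4, others 114 to 119.7). Replicate 5 differs from the others in passage as well as in drugs, which cannot be told apart in it; between SIRMu-1 cultures with and without drugs edgeR called 0 of 71 members, with 1 at an unadjusted p under 0.05.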

How the results depend on the processing

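Of called members, 10 of 35 in SIRMu-1 against primary cultures, 42 of 49 in rMC-1 against primary cultures and 15 of 33 in SIRMu-1 against rMC-1 kept their call under all alternatives run. For SIRMu-1 against primary cultures (33 higher, 2 lower), summing libraries whose file names share a code gave 19 higher and 0 lower, and keeping the SIRMu-1 cultures with drugs alone gave 12 and 1, where calls over all genes were 3072 and 3389, against 5220. The lower count was 4 by DESeq2, 1 with more than 1 CPM in 3 libraries and 0 with only those groups in the fit. Leaving out 1 library gave 25 to 35 higher and 1 to 3 lower. For rMC-1 against primary cultures (38 higher, 11 lower), library totals gave 6 lower, and leaving out 1 library gave 36 to 44 higher and 9 to 13 lower. For SIRMu-1 against rMC-1 (16 higher, 17 lower), library totals gave 5 higher and 46 lower, SIRMu-1 with drugs only gave 10 higher and 10 lower, and leaving out 1 library gave 10 to 18 higher and 16 to 28 lower, the 10 and the 28 without rMC-1 replicate 2 and the 18 without Primary MC replicate 2. Library totals turned the sign of 9 members in rMC-1 against primary cultures and of 17 in SIRMu-1 against rMC-1. Of these, 3 in the first comparison (Ndufv2, 0.19, Ndufv3, 0.01, and Sdhc, 0.15) and 2 in the second (Ndufv3, -0.15, and Sdhc, -0.0061) were called under TMM, and 0 were called in opposite directions under both. Among those with no call under TMM were Atp5e (0.46) and Uqcrc2 (0.28) in the first and Sdhb (-0.44) in the second; scaling sets these signs by construction, since all genes move together.

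Deviations of same-numbered libraries from their group means had correlations of -0.06 to 0.10, within the -0.16 to 0.13 of libraries with unlike numbers. This gave no sign that the numbers pair the cultures, but with so few libraries it cannot exclude a shared preparation. A replicate block gave 39 higher and 1 lower, 39 and 10, and 16 and 18 in the 3 comparisons. For members at a few counts, depth limits how precisely a level can be told, and a count of 0 allows up to 3. Why Ndufa1 and Atp5f1 had so few counts was not tested.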
